A study of Mus musculus with 8 samples.

Results

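The 9 genes described here are the aldo-keto reductase genes Akr1a1, Akr1b3, Akr1b8, Akr1b10, Akr1c12, Akr1c13, Akr1c14, Akr1c19 and Akr1c21. They are 9 of the 24421 gene symbols counted, and were chosen by symbol because Akr genes differed between groups in these libraries. The values of the 9 genes in the comparisons below are therefore a description. No p-value is given for them, and their calls are counted only beside the share of all genes called. PolyA-selected RNA was sequenced from 8 libraries of mouse embryonic stem cells, 2 in each of 4 groups, all grown in 2i/LIF medium, which keeps the cells naive, over 3 to 4 passages. Cells of the v6.5 line depleted of Ubc9 had 72 hours of doxycycline and were compared with v6.5 controls. Ubc9 is the conjugating enzyme through which SUMO is joined to target proteins. H1 TKO cells carry a triple knockout of the linker histone genes Hist1h1c, Hist1h1d and Hist1h1e and were compared with H1 wild-type controls; both lines were made for an earlier publication. Whether the Ubc9 controls received doxycycline is not in the labels, nor is how the depletion is driven or whether the paired libraries are from separate cultures or clones. All p-values below are thus relative to library-to-library spread, which may be technical.

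Aldo-keto reductases use NADPH or NADH to turn aldehydes and ketones into alcohols. Akr1a1 is the general aldehyde reductase. The Akr1b enzymes include aldose reductase, which makes sorbitol from glucose, and relatives that act on fatty and retinoid aldehydes. The Akr1c enzymes oxidise hydroxyl groups and reduce keto groups of steroids and prostaglandins, and are best known from liver, gonads and reproductive tract. In many cells Akr1b and Akr1c genes belong to the genes induced through the transcription factor NRF2 under oxidative or electrophilic stress.

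In GRCm38, Akr1a1 lies alone at chr4:116636510-116651680. The Akr1b cluster on chromosome 6 holds, in order, Akr1b3 (chr6:34302434-34317478), Akr1b8 (chr6:34354119-34368463), Akr1b10 (chr6:34384218-34396950) and Akr1b7. The Akr1c cluster on chromosome 13 spans 537.553 kb with 8 counted Akr1c genes. Akr1c14 (chr13:4049011-4090688) comes first, followed by Akr1c18, Akr1c13 (chr13:4191150-4205596), Akr1c19 (chr13:4228700-4252843), Akr1c12 (chr13:4268176-4279433), Akr1c6, Akr1c20 and Akr1c21 (chr13:4574075-4586541). Akr1e1, of another subfamily, starts 4.208 kb after Akr1c21.

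Sequence sharing limits what the counts of some genes mean. Of the 50-base words in the coding sequence of Akr1b3, 88.9% also occur in transcripts of other genes, mostly its pseudogenes. Akr1c12 and Akr1c13 have 96.2% identical coding bases and share 37.2% of these words with each other. Akr1b8 and Akr1b10 share 4.67%, and Akr1a1, Akr1c14, Akr1c19 and Akr1c21 share 0% of their coding words. How reads that match several genes were counted is not given in the sources used here, so counts of Akr1b3, and the split between Akr1c12 and Akr1c13, are uncertain. Exons of Akr1c14 also overlap the pseudogene Gm18857 over 234 bases, and exons of Akr1c19 overlap Marcksl1-ps4 over 291 bases.

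Promoter sequences are shown for the gene with the highest counted level (Akr1a1), the gene called in the H1 comparison (Akr1b8), the gene with the largest fitted change in the Ubc9 comparison (Akr1c21) and the near-identical pair Akr1c12 and Akr1c13. Each runs from 250 bases before to 50 after the RefSeq start on GRCm38.p6, 5′ to 3′ on the gene's strand, and capitals mark CpG dinucleotides, the sites where DNA is methylated. They lie at chr4:116651625-116651924 on the minus strand (Akr1a1), chr6:34353896-34354195 on the plus strand (Akr1b8), chr13:4279350-4279649 on the minus strand (Akr1c12), chr13:4190937-4191236 on the plus strand (Akr1c13) and chr13:4573825-4574124 on the plus strand (Akr1c21).
Akr1a1: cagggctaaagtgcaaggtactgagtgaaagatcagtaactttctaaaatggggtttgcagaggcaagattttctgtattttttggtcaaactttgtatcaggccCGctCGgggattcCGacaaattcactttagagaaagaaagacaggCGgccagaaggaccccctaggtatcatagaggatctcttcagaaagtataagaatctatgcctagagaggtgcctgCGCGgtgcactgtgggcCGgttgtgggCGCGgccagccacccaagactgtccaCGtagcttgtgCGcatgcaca
Akr1b8: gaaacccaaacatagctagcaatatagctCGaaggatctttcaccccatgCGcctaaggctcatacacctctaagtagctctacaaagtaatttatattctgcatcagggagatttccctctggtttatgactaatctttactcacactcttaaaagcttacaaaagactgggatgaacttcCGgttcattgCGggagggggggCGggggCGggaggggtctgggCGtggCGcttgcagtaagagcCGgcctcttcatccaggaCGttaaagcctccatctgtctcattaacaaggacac
Akr1c12: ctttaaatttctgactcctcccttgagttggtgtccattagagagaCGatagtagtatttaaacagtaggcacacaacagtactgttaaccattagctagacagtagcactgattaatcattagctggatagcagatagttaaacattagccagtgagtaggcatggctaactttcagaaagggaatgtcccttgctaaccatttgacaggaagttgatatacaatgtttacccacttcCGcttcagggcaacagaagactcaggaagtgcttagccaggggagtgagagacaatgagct
Akr1c13: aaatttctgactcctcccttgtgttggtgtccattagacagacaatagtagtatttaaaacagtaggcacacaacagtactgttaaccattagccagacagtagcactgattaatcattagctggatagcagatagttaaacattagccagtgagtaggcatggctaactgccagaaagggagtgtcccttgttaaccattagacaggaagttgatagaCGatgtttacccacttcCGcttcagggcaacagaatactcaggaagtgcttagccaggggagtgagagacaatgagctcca
Akr1c21: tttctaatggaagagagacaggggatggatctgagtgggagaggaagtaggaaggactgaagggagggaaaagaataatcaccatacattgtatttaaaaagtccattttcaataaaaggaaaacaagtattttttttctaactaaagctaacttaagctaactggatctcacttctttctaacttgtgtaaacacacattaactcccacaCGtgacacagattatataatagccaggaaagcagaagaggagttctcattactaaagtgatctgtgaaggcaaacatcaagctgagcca

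Of the 9 genes, 8 had a promoter entry in the RefSeq table; Akr1b3 had none. The Akr1a1 promoter holds 11 CpG dinucleotides, that of Akr1b8 10 and that of Akr1b10 7, while the 5 Akr1c promoters hold 1 to 2. Over all 32851 promoters of this length the median was 7, with quartiles of 3 and 20. The Akr1c promoters are thus below the lower quartile, and Akr1a1 and Akr1b8 lie between the median and the upper quartile. The Akr1c12 and Akr1c13 promoters are 95.9% identical over 296 aligned bases. The core of the antioxidant response element that NRF2 binds, TGACNNNGC on either strand, was found in 1 of the 8 promoters (Akr1c19) and in 12.4% of all promoters. The AP-1 motif TGANTCA was in 0 of 8, against 7.81% of all. The letters TATAAA occurred in the promoter of Akr1b8 (13.6% of all promoters), the E-box CACGTG in that of Akr1c21 (7.15% of all), and CCAAT in those of Akr1c14 and Akr1c19 (37.4% of all). These matches are a description of letters in short windows, with no overlap rule between motifs, and methylation was not analysed here.

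The libraries held between 44441713 and 102780141 counts, so that 3 counts correspond to 0.0300 to 0.0685 CPM (counts scaled per 1e+06 of the TMM-adjusted library size). Hist1h1c, Hist1h1d and Hist1h1e had 0 counts in both H1 TKO libraries. All 8 embryonic stem cell markers examined, Pou5f1, Nanog and Sox2 among them, were above 1 CPM in every library. Their sum was 10557 and 10410 CPM in H1 TKO and 5434 and 5786 CPM in H1 control libraries. In the Ubc9 comparison it was 5031 and 5062 CPM in depleted and 5286 and 5540 CPM in control libraries. Ubc9-depleted library 1 stood apart. Among 6248 genes that were silent in the Ubc9 controls (no more than 1 count in either), 85.2% had counts in it, with a median of 10 counts, against 29.2% in Ubc9-depleted library 2. In the H1 comparison the control pair differed more (SD of log2 difference 0.540) than the TKO pair (0.273). Values without the first depleted library, or without the first H1 control, are given for part of the results. Markers of other cells moved too. Summed 2-cell-like markers, such as Zscan4c and Dux, were at 352 to 372 CPM in Ubc9-depleted against 16.3 to 17.3 CPM in control libraries, and at 79.8 to 84.7 CPM in H1 TKO against 3.22 to 5.57 CPM in control libraries.

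Akr1a1 had the highest counted level of the 9 genes in every group. Counts of Akr1b3 are uncertain because of its pseudogenes, so its place below Akr1a1 is as counted only. Its level in the Ubc9 comparison was 253 and 276 CPM in depleted libraries and 295 and 308 CPM in controls, a log2 fold change of −0.19 ± 0.13 (SE, n = 2 per group). The depleted libraries were below the controls, but scaling by library totals alone moved the log2 fold change to 0.00, so no direction is given. Its level in the H1 comparison was 317 and 345 CPM in TKO and 294 and 390 CPM in control libraries, and the groups overlapped. Akr1a1 reduces glucuronate on the route to vitamin C in mice, among other aldehydes.

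After Ubc9 depletion the steroid-acting Akr1c genes were higher than in controls, by far the most for Akr1c21, and the aldehyde-acting Akr1b8 was higher by a smaller amount. Akr1c21, which acts on the hydroxyl groups of androgens and other steroids, was at 11.9 and 11.6 CPM in the depleted libraries and 0.216 and 0.304 CPM in the controls. This corresponds to 1189 and 885 counts against 21 and 28, and to a log2 fold change of 5.49 ± 0.22 (SE), or 45.0-fold. The depleted libraries were close to each other and far above both controls, and the log2 fold change ran from 5.24 to 5.72 over all alternatives run. Akr1c13, a steroid and alcohol dehydrogenase, was at 3.09 and 3.88 CPM in depleted and 0.947 and 0.826 CPM in control libraries, a log2 fold change of 1.97 ± 0.38. Its near copy Akr1c12 was at 1.80 and 2.00 CPM against 0.494 and 0.391 CPM, a log2 fold change of 2.10 ± 0.58. Neither pair of groups overlapped. Because reads of the 2 genes may be interchanged, their sum is the firmer value: 489 and 449 counts in depleted and 140 and 112 counts in control libraries, or 4.88 and 5.88 CPM against 1.44 and 1.22 CPM.

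Akr1c14, a hydroxysteroid dehydrogenase that inactivates dihydrotestosterone, was at 1.19 and 1.85 CPM in depleted and 0.494 and 0.565 CPM in control libraries. Its log2 fold change was 1.52 ± 0.61, and 1.80 without Ubc9-depleted library 1. The groups did not overlap, and depleted library 2 was the higher of its pair. Akr1c19, another member of the hydroxysteroid dehydrogenase branch, was almost silent, with 14 and 5 counts in depleted and 1 and 0 counts in control libraries. The ratio of these counts was 20.4 (95% counting interval 3.24 to 846), for counting error only. Of its 19 counts, 14 came from depleted library 1, in which genes silent in the controls had a median of 10 counts. Per kilobase of exon it was at 0.0237 CPM there, below the median of 0.0730 CPM per kb of those silent genes. The part of that library's general signal in it was not tested. Summed over the 5 Akr1c genes, the level was 18.1 and 19.4 CPM in depleted and 2.16 and 2.09 CPM in control libraries. Akr1c21 made up 65.7% and 59.8% of this sum in depleted libraries and 10% and 14.6% in controls, so the make-up of the group differed as well as its level. RNA from whole cultures was measured, and more cells with these transcripts and more transcripts per cell cannot be told apart.

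Of the Akr1b genes, Akr1b8, a reductase of fatty aldehydes first found as a growth factor-induced protein, was at 9.99 and 7.66 CPM in depleted and 4.45 and 5.42 CPM in control libraries. Its log2 fold change was 0.84 ± 0.16, and 0.63 without Ubc9-depleted library 1, which was the higher of the pair. Akr1b10, its neighbour and relative, was at 9.79 and 9.86 CPM against 8.08 and 7.35 CPM, a log2 fold change of 0.35 ± 0.13. Both genes had higher values in both depleted libraries, and the difference of Akr1b10 was small. Akr1b3, the mouse aldose reductase, had 66 and 5 counts in depleted and 8 and 8 counts in control libraries, so that depleted library 1 alone was high. Per kilobase of exon its level in that library was 0.0786 CPM, close to the median of 0.0730 CPM per kb of genes silent in the controls (90th percentile 0.275). Akr1b3 did not reach the minimum count for the fit, and no direction is given.

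**Figure D1:**
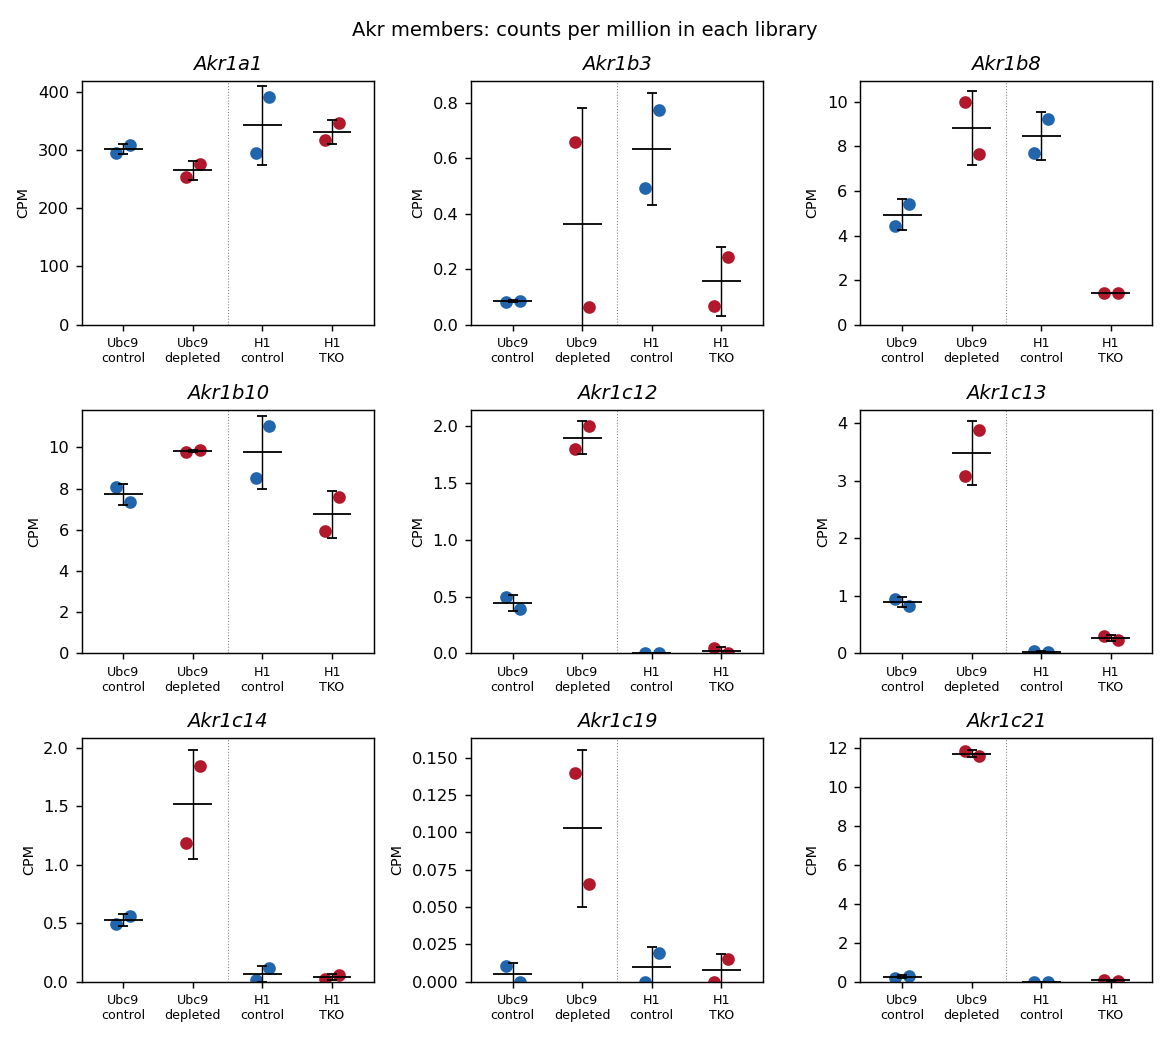
CPM of the 9 Akr genes in each library, with one panel per gene and its own linear axis from 0. Points are libraries, horizontal lines are means and bars are SD (n = 2 per group). Akr1c21 sits at 11.6 to 11.9 CPM in Ubc9-depleted cells and below 1 CPM elsewhere, while Akr1b8 is lowest in H1 TKO cells.

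Of the 9 genes, 7 reached the minimum count in the Ubc9 comparison and 5 passed edgeR's quasi-likelihood test at an adjusted p under 0.05, all higher: Akr1b8, Akr1b10, Akr1c12, Akr1c13 and Akr1c21. Over all 16499 genes tested, 36.0% passed, 21.1% higher and 15.0% lower. In 7 of the 9 genes the depleted libraries lay above both controls, and in 1, Akr1a1, below. Among all genes tested, 36.7% lay above and 32.2% below without overlap. The median log2 fold change of the 7 genes was 1.52, against 0.06 for all genes. Since these libraries led to the choice of genes, nothing is read from these counts. With library totals in place of TMM factors the median of all genes was 0.25, and the calls over all genes were 3983 higher and 1084 lower instead of 3479 and 2467. The 5 calls became 8 (7 higher, 1 lower) without depleted library 2, 2 without control library 1 and 3 without control library 2. They stayed at 5 without depleted library 1, where 19.0% of all genes were called higher. Akr1b10 was no longer called with each library left out, with RLE factors, in DESeq2, without the filter or with a replicate block. Akr1c12 was not called without either control, nor Akr1b8 without control library 1. Akr1c14 was called higher without either depleted library or with RLE factors.

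In the H1 comparison Akr1b8 and Akr1b10 were lower in TKO cells, where they had been higher after Ubc9 depletion. Akr1b8 was at 1.42 and 1.42 CPM in H1 TKO and 7.72 and 9.23 CPM in control libraries, or 62 and 93 counts against 470 and 476. Its log2 fold change was −2.58 ± 0.30 (SE), or 5.97-fold lower, and ran from −2.70 to −2.45 over the alternatives. The TKO libraries were nearly equal and both far below the controls. Akr1b10 was at 5.94 and 7.56 CPM against 8.50 and 11.02 CPM, a log2 fold change of −0.53 ± 0.27, and −0.70 without H1 control library 1. Akr1b3 had 3 and 16 counts in TKO and 30 and 40 counts in control libraries, a log2 fold change of −1.95 ± 0.87. It ran from −3.16 to −1.38 over the alternatives, and counts of this gene are uncertain because of its pseudogenes. TKO library 1 was below the minimum count, which Akr1b3 reached in both controls. The gene thus entered the fit only with the control libraries, and no support is read from its direction. These 3 Akr1b genes were lower in both TKO libraries than in both controls, and the log2 fold change of Akr1b8 was larger in size than that of Akr1b10, a difference that was not tested. Akr1b7, the other gene of the cluster, had 0 and 6 counts in TKO and 0 in both control libraries. With 0 in the controls it could not have been lower, and no direction is given. The log2 fold changes of the Ubc9 and H1 comparisons stand side by side only, since the comparisons used different cells and library kits, and the difference between them was not tested.

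The 5 described Akr1c genes were close to silent in all 4 H1 libraries. Their summed level was 0.457 and 0.351 CPM in TKO and 0.0492 and 0.155 CPM in control libraries, over 5 genes. Akr1c13 accounted for most of the TKO counts, with 13 and 15 counts in TKO and 2 and 1 in control libraries. The ratio was 9.60 (95% counting interval 2.96 to 49.3), and the gene reached the minimum count only through the TKO libraries. Akr1c21 had 4 and 3 counts in TKO and 0 and 0 in controls, which is at least 2.40-fold higher when 3 counts over the group are taken as the floor. Akr1c12 had 2 and 0 counts against 0 and 0, Akr1c14 had 1 and 4 against 1 and 6, and Akr1c19 had 0 and 1 against 0 and 1. No difference was detectable for these last 3 genes at this depth.

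Of the 9 genes, 5 reached the minimum count in the H1 comparison and 1, Akr1b8, was called, lower, by edgeR's quasi-likelihood test. Over all 14800 genes tested, 17.0% passed, 8.59% higher and 8.43% lower. Without overlap, 2 of the 9 genes were higher in TKO and 3 lower, against 31.4% and 30.6% of all genes. The median log2 fold change of the 5 genes was −0.53, against −0.02 for all genes. As above, nothing is read from these counts. Without H1 control library 1, 2 of the genes were called lower (Akr1b8 and Akr1b10), while 23.4% of all genes were called higher and 22.8% lower.

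**Figure D2:**
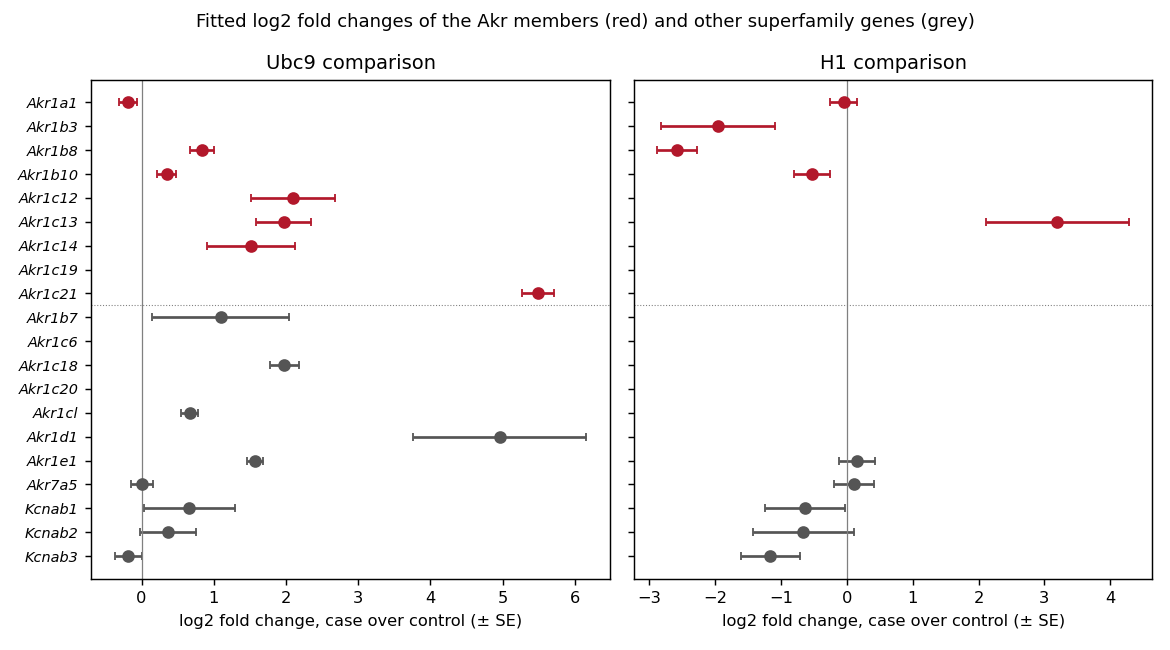
Fitted log2 fold change with its SE, depleted or TKO over control, for the 9 Akr genes (red) and 11 other genes of the superfamily (grey), with the Ubc9 comparison on the left and the H1 comparison on the right. Genes below the minimum count, or at 0 counts in a group, have no point. Akr1c21 stands at 5.49 in the Ubc9 comparison and Akr1b8 at −2.58 in the H1 comparison.

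Between genes, levels are compared per kilobase of exon. The places of Akr1b3, Akr1c12 and Akr1c13 are as counted only, since sequence shared with other genes leaves their counts uncertain. In the Ubc9 controls the order was Akr1a1 (110 CPM per kb), Akr1b8 (3.29), Akr1b10 (2.18), Akr1c13 (0.618), Akr1c12 (0.351), Akr1c21 (0.173), Akr1c14 (0.163), Akr1b3 (0.0101) and Akr1c19 (0.00087). Here Akr1c21 and Akr1c14 did not differ beyond their SD. In depleted cells Akr1c21 stood in second place at 7.81 CPM per kb, behind Akr1a1 (96.3) and ahead of Akr1b8 (5.89). Akr1b10 (2.78) and Akr1c13 (2.43) followed with overlapping SD, then Akr1c12 (1.51), Akr1c14 (0.469), Akr1b3 (0.0432) and Akr1c19 (0.0174), the last pair again overlapping. The other 8 genes stood in the same order as in controls. In H1 controls Akr1b8 (5.65 CPM per kb) was above Akr1b10 (2.76), and in TKO cells Akr1b10 (1.91) was above Akr1b8 (0.945). All other genes except Akr1a1 (124 in control, 120 in TKO) were below 0.2 CPM per kb there. In TKO cells Akr1c21, Akr1b3, Akr1c12 and Akr1c14 were not apart beyond the SD of neighbours, and in H1 controls neither were Akr1c14 and Akr1c13.

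The other 11 genes of the superfamily are not among the 9 and were tested, though their list too was drawn up with results of these libraries known. In the Ubc9 comparison 9 of them reached the minimum count, and 4 rose and 0 fell in edgeR's quasi-likelihood test, with a median log2 fold change of 0.66. None was lower in DESeq2 or at an unadjusted p under 0.05 either. Of all genes tested, 21.1% were called higher and 15.0% lower. Akr1c18, which inactivates progesterone and lies between Akr1c14 and Akr1c13, was at 8.65 and 7.83 CPM in depleted and 2.07 and 2.12 CPM in control libraries. It rose by 1.98 ± 0.20 on the log2 scale (edgeR, adjusted p = 4.8e-09). Akr1e1, an anhydrofructose reductase next to Akr1c21, was at 38.9 and 42.2 CPM against 13.7 and 13.6 CPM, and rose by 1.57 ± 0.11 (edgeR, adjusted p = 2.2e-12). Both genes lie in or next to the Akr1c cluster and were higher, as the described Akr1c members were. Akr1cl, a relative on chromosome 1, was at 19.9 and 21.4 CPM against 11.7 and 14.4 CPM (log2 fold change 0.67 ± 0.12, edgeR adjusted p = 4.4e-05).

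Akr1d1, a steroid reductase of bile acid synthesis on chromosome 6, had 93 and 37 counts in Ubc9-depleted and 0 and 4 counts in control libraries (log2 fold change 4.96 ± 1.20, edgeR adjusted p = 0.0019). It reached the minimum count only through the depleted libraries, and no support is read from its call. The log2 fold change was 3.95 without Ubc9 control library 1 (edgeR, adjusted p = 0.348) and without control library 2, which leaves a control at 0 counts and so no interpretable fold, the adjusted p was 0.0707 in edgeR. The number of called genes in this set was 7 without depleted library 2. Akr1c20 had 16 and 3 counts in depleted libraries and 0 in both controls, at least 6.79-fold higher by counts. Of these counts 16 are from depleted library 1, at 0.0859 CPM per kb against the median of 0.0730 for genes silent in the controls, and the 3 counts of library 2 alone equal the floor and give no fold. Akr1c6, an enzyme of androgen and oestrogen conversion, had 9 and 3 against 0 and 3 (ratio 4.29, 95% counting interval 1.16 to 23.7). Neither of these was tested in the fit. Akr7a5, Kcnab1, Kcnab2 and Kcnab3, the last 3 being potassium channel subunits, overlapped between groups. Akr1b7, of the Akr1b cluster, had 50 and 24 counts in depleted and 20 and 16 counts in control libraries. Its log2 fold change was 1.10 ± 0.95, and it was not called.

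In the H1 comparison 7 of the 11 genes were tested, and 2 rose and 0 fell in edgeR and in DESeq2, with a median log2 fold change of 0.11. Only Kcnab3 was lower at an unadjusted p under 0.05. Of all genes tested, 8.59% were called higher and 8.43% lower. Akr1c18 had 132 and 207 counts in TKO and 0 in both control libraries, at least 116-fold higher (edgeR, adjusted p = 0.0015). Akr1cl had 53 and 58 counts against 0 and 0, at least 38.0-fold higher (edgeR, adjusted p = 0.0087). Both genes reached the minimum count only through the TKO libraries. They could only be called higher, and no support is read from their calls. In H1 TKO cells Akr1c18, at 3.01 and 3.16 CPM, was thus well above the 5 described Akr1c genes together. Akr1e1 was at 16.3 and 16.9 CPM in TKO and 18.2 and 11.6 CPM in control libraries and was not called. Without H1 control library 1, 4 of these genes were called, 3 higher and 1 lower, Akr1e1 among the higher (edgeR, adjusted p = 0.0070).

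The 4 nearest counted genes on each side of the Akr1b and Akr1c clusters were tested in the same fits. For the Akr1b cluster they begin 126.9 kb before and 53.2 kb after it. For the Akr1c cluster the nearest are 103.6 to 194.2 kb away on one side, but on the other Klf6 is 1275 kb, Pitrm1 1962 kb, Pfkp 1993 kb and Adarb2 3616 kb away, so those 4 say little about its surroundings. For Ubc9 depletion 12 of these 16 reached the minimum count, and 3 rose (Exoc4, Agbl3 and Adarb2) and 1 fell (Klf6). Of all genes tested, 21.1% were called higher and 15.0% lower. The median log2 fold change of the 12 neighbours was 0.19, against 0.06 for all genes. Adarb2 reached the minimum count only through the depleted libraries, and no support is read from its call. Exoc4, a subunit of the exocyst, was at 292 and 322 CPM against 212 and 207 CPM (log2 fold change 0.55 ± 0.13, edgeR adjusted p = 0.0012). Agbl3 (2.32 ± 0.68, edgeR adjusted p = 0.0083) and Adarb2 (2.89 ± 1.04, edgeR adjusted p = 0.0301) were highest in depleted library 1, with 274 and 111 counts there against 55 and 12 in library 2. Without that library their log2 fold changes were 1.06 and 0.88 and their adjusted p 0.0870 and 0.494, and that of the transcription factor Klf6 (−0.34 ± 0.12, edgeR adjusted p = 0.0243) was 0.0696. Klf6 also lost its call when libraries were scaled by totals alone (edgeR, adjusted p = 0.204), and Adarb2 with library totals, without the filter, with a replicate block and in DESeq2 (adjusted p = 0.0590, 0.111, 0.0927 and 0.0833). With library totals alone 5 neighbours were higher and 0 lower. The count of called neighbours was 7 without depleted library 2 and 0 without either control library. Net1, 130.8 kb from the Akr1c cluster, and the more distant Pitrm1 overlapped between groups at 99.6 to 108 CPM and 137 to 179 CPM.

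For the H1 knockout 10 of the 16 neighbours were tested, and 1 rose and 2 fell, all among those nearest the Akr1b cluster. Of all genes tested, 8.59% were called higher and 8.43% lower. Bpgm, which makes the red cell regulator bisphosphoglycerate and starts 53.2 kb after the cluster, was at 2.90 and 2.39 CPM in TKO and 15.02 and 21.8 CPM in control libraries. It fell by 2.80 on the log2 scale (SE 0.30, edgeR adjusted p = 0.0015). Cald1, an actin-binding protein and the next gene along, was at 8.17 and 6.82 CPM against 33.5 and 18.2 CPM and fell by 1.79 (SE 0.33, edgeR adjusted p = 0.0118). Without H1 control library 1 its log2 fold change was −1.28. Slc35b4, a nucleotide sugar transporter on the other side, was at 156 and 161 CPM against 68.7 and 74.5 CPM and rose by 1.15 ± 0.19 (edgeR, adjusted p = 0.0074). Its adjusted p was 0.137 without TKO library 1 and 0.162 without TKO library 2. The count of called neighbours was 6 without H1 control library 1 and 8 without H1 control library 2. Of the 4 tested genes around the Akr1c cluster, of which only Net1 is within 200 kb, 0 were called by edgeR or DESeq2, and 1 of 4 (Pfkp, lower) had an unadjusted p under 0.05. Without H1 control library 1, 2 were called, both lower (Pitrm1 and Pfkp).

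**Figure D3:**
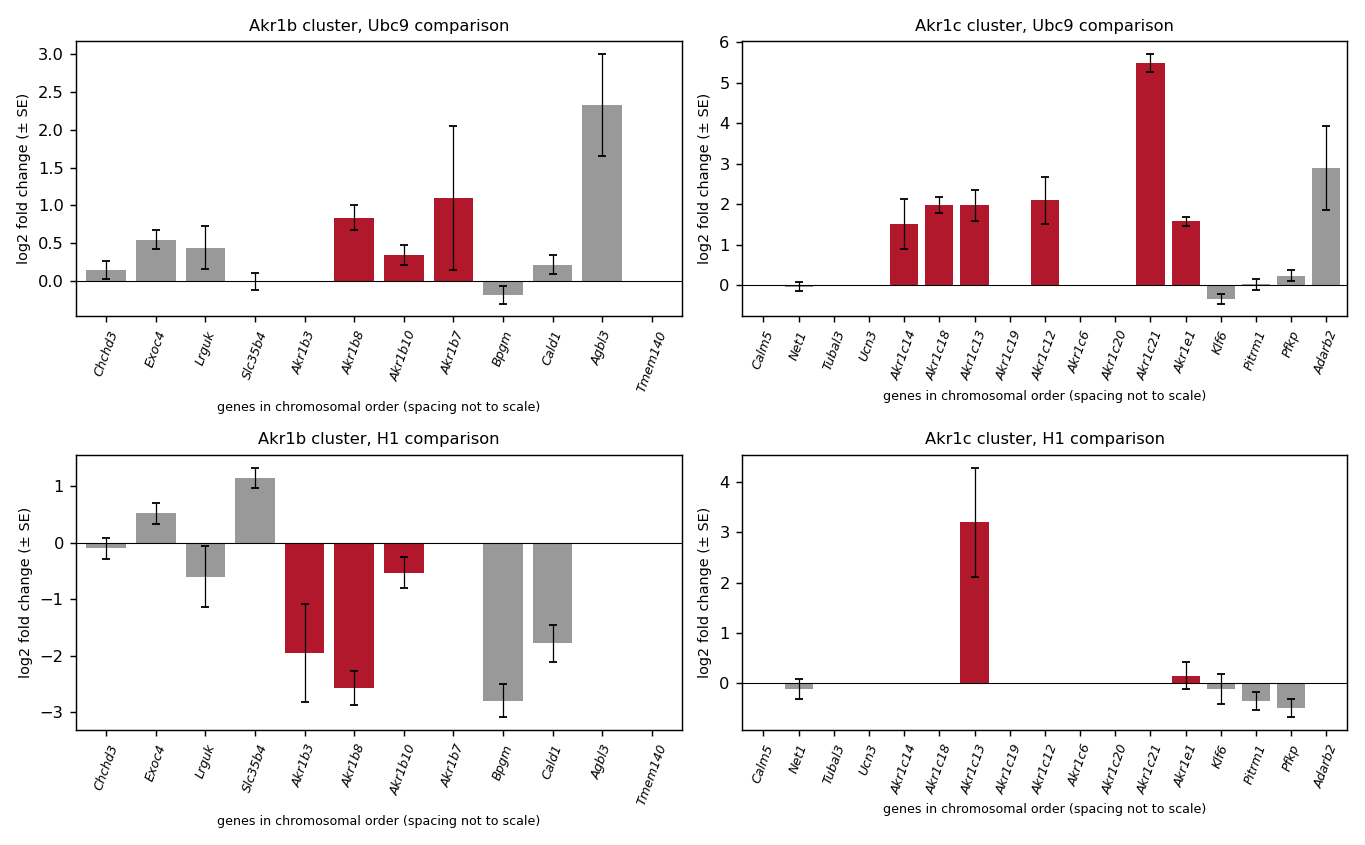
Fitted log2 fold change with its SE for Akr genes (red) and the nearest counted neighbours (grey), in chromosomal order with spacing not to scale; the left panels show the Akr1b cluster and the right panels the Akr1c cluster, with the Ubc9 comparison above the H1 comparison. Genes below the minimum count or at 0 counts in a group have no bar. In the Ubc9 comparison the red bars at the Akr1c cluster stand from 1.52 to 5.49, and in the H1 comparison those of Akr1b8 and Bpgm reach −2.58 and −2.80.

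The genes that act with aldo-keto reductases were counted in 4 lists. Their counts stand beside the shares of all genes tested. These were 21.1% higher and 15.0% lower in the Ubc9 comparison, and 8.59% and 8.43% in the H1 comparison. The NRF2 list of 36 genes holds the factor, its regulators and its known targets. After Ubc9 depletion 35 were tested, and 2 rose (Mafk and Ephx1) and 20 fell, with a median log2 fold change of −0.47. Most called genes of this list were lower, while the called Akr1b and Akr1c genes were higher. The list mixes targets with repressors such as Bach1, so its direction does not measure NRF2 activity. A part of NRF2 in the Akr values was not tested. Cbr3, a carbonyl reductase, was at 4.73 and 4.91 CPM in depleted and 11.4 and 10.4 CPM in control libraries and fell by 1.17 on the log2 scale (SE 0.14, edgeR adjusted p = 1.9e-07). Pgd, an enzyme of NADPH production, was at 88.1 and 89.9 CPM against 187 and 176 CPM and fell by 1.03 (SE 0.12, edgeR adjusted p = 9.8e-08). Bach1, a repressor of NRF2 targets, fell by 1.03 (SE 0.12, edgeR adjusted p = 1.3e-07), and Srxn1, which repairs peroxiredoxins, fell by 0.95 (SE 0.11, edgeR adjusted p = 4.8e-08). The counts were 1 higher and 22 lower without depleted library 1, and 1 higher and 13 lower without control library 2.

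All 36 NRF2-list genes were tested in the H1 comparison, and 11 rose and 4 fell, with a median log2 fold change of 0.05 (−0.04 with library totals alone). Among the 11 was Gsta1, with 16 and 22 counts in TKO and 0 in both control libraries. It reached the minimum count only through the TKO libraries, and no support is read from its call. Of all genes tested, 8.59% rose and 8.43% fell. Osgin1, an oxidative stress-induced growth inhibitor, was at 13.8 and 14.1 CPM in TKO and 0.378 and 1.45 CPM in control libraries and rose by 3.95 ± 0.56 (edgeR, adjusted p = 0.0046), or by 3.26 without H1 control library 1 and 5.20 without control library 2. Cbr3 rose by 1.55 ± 0.31 (edgeR, adjusted p = 0.0154) and Gsta3, a glutathione transferase, by 1.50 ± 0.22 (edgeR, adjusted p = 0.0050), while the exporter Abcc1 fell by 1.97 (SE 0.23, edgeR adjusted p = 0.0021). Without H1 control library 1 the log2 fold change of Cbr3 was 1.18. Calls in this list depended on the libraries: 5 higher and 1 lower without TKO library 1, 3 and 1 without TKO library 2, 15 and 11 without control library 1, and 16 and 7 without control library 2.

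Steroid and prostaglandin genes, whose products are substrates of the Akr1c enzymes, numbered 34, with 33 in the files. After Ubc9 depletion 25 were tested, and 5 rose and 2 fell (median log2 fold change 0.05), or 3 and 3 with RLE factors. Of all genes tested, 21.1% rose and 15.0% fell there, and 8.59% and 8.43% in the H1 comparison. Ptgs2, the inducible cyclooxygenase, was at 5.89 and 3.14 CPM in depleted and 0.535 and 0.999 CPM in control libraries and rose by 2.56 ± 0.37 (edgeR, adjusted p = 2.6e-06). Without depleted library 1 its log2 fold change was 2.03. Ptgs1, the other cyclooxygenase, rose by 2.48 ± 0.67 (edgeR, adjusted p = 0.0047), or by 1.84 without depleted library 1. Its log2 fold change was 3.17 without control library 1 (edgeR, adjusted p = 0.0851) and 1.97 without control library 2 (edgeR, adjusted p = 0.336). Hsd17b14, a hydroxysteroid dehydrogenase of another family, fell by 1.22 (SE 0.11, edgeR adjusted p = 6.3e-10) and the prostaglandin E synthase Ptges by 0.77 (SE 0.11, edgeR adjusted p = 1.9e-06). The count of called genes was 19 without depleted library 2 and 3 without either control library. Of the same list, 25 were tested in H1 TKO cells, and 2 rose and 4 fell (median −0.13). Hpgd, which degrades prostaglandins, fell by 2.82 (SE 0.38, edgeR adjusted p = 0.0039), Hsd17b14 fell by 2.07 (SE 0.28, edgeR adjusted p = 0.0039) and Hsd17b11 by 1.84 (SE 0.21, edgeR adjusted p = 0.0018). Ptges rose by 2.14 ± 0.26 (edgeR, adjusted p = 0.0024). The count was 10 without H1 control library 1 and 12 without control library 2.

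Retinoid and aldehyde genes act on the substrates of Akr1b8 and its relatives, and numbered 33. After Ubc9 depletion 27 were tested, and 9 rose and 1 fell (median log2 fold change 0.38). Of all genes tested, 21.1% rose and 15.0% fell there, and 8.59% and 8.43% in the H1 comparison. Adh7, an alcohol dehydrogenase that oxidises retinol, had 308 and 131 counts in depleted and 2 and 8 counts in control libraries and rose by 5.46 ± 0.74 (edgeR, adjusted p = 1.1e-06), or by 4.73 without control library 1 and 6.74 without control library 2. Its log2 fold change was 4.98 without depleted library 1. It reached the minimum count only through the depleted libraries, and no support is read from its call. Rdh14 rose by 0.77 ± 0.21 (edgeR, adjusted p = 0.0048) and Cbr4 by 0.77 ± 0.12 (edgeR, adjusted p = 1.2e-05), while Aldh1b1 fell by 0.71 (SE 0.27, edgeR adjusted p = 0.0371). Without depleted library 1 the log2 fold change of Rdh14 was 0.48. DESeq2 called 3 genes of this list, all higher, and neither Rdh14 nor Aldh1b1 was among them. Rdh14 was also not called without control library 1, nor Aldh1b1 without either control or with library totals alone. The count was 17 without depleted library 2, 2 without control library 1 and 3 without control library 2. Of the same list, 28 were tested in H1 TKO cells, and 5 rose and 4 fell (median 0.28). Among the 5 were Adh7 (38 and 71 counts in TKO) and Cyp26a1 (28 and 49), each with 0 counts in both controls. Both reached the minimum count only through the TKO libraries. They could only be called higher, and no support is read from their calls. Adh1, an alcohol dehydrogenase, was at 25.3 and 30.1 CPM in TKO and 0.0821 and 0.291 CPM in control libraries and rose by 7.24 ± 0.48 (edgeR, adjusted p = 0.00049), or by 6.57 without H1 control library 1 and 8.36 without control library 2. It reached the minimum count only through the TKO libraries, and no support is read from its call. The retinaldehyde dehydrogenase Aldh1a3 rose by 5.22 ± 0.27 (edgeR, adjusted p = 0.00033). The retinol transporter Stra6 had 1 and 4 counts in TKO and 133 and 108 counts in control libraries. It fell by 5.51 (SE 0.70, edgeR adjusted p = 0.0029), with a log2 fold change of −6.41 without TKO library 2. Stra6 reached the minimum count only through the control libraries. It could only be called lower, and no support is read from its call. Aldh1b1 fell by 3.66 (SE 0.43, edgeR adjusted p = 0.0021), with a log2 fold change of −4.37 without TKO library 2. The count was 15 without H1 control library 1 and 17 without control library 2.

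Sugar reduction genes surround the sorbitol reaction of aldose reductase, and numbered 20. In the Ubc9 comparison 18 were tested, and 4 rose and 8 fell (median log2 fold change −0.17, or 0.04 with library totals alone). Of all genes tested, 21.1% rose and 15.0% fell there, and 8.59% and 8.43% in the H1 comparison. Sord, which turns sorbitol into fructose, was at 44.6 and 43.9 CPM in depleted and 22.7 and 25.3 CPM in control libraries and rose by 0.88 ± 0.11 (edgeR, adjusted p = 2.8e-07). Dcxr, a xylulose reductase, rose by 1.04 ± 0.13 (edgeR, adjusted p = 4.0e-07). Ugdh, which makes UDP-glucuronate, fell by 0.77 (SE 0.11, edgeR adjusted p = 3.0e-06), and the taurine transporter Slc6a6 fell by 0.72 (SE 0.13, edgeR adjusted p = 5.6e-05), with an adjusted p of 0.0613 without control library 2. The count of called genes was 4 without control library 1 and 3 without control library 2. Of the same list, 16 were tested in H1 TKO cells, and 2 rose and 4 fell (median −0.65). Slc6a6 fell by 2.87 (SE 0.20, edgeR adjusted p = 0.00051), the glucose transporter Slc2a3 by 2.06 (SE 0.19, edgeR adjusted p = 0.0011) and the hexokinase Hk2 by 1.69 (SE 0.18, edgeR adjusted p = 0.0016). Sord rose by 2.48 ± 0.22 (edgeR, adjusted p = 0.00087). The count was 11 without either H1 control library. The enzyme after aldose reductase in the sorbitol route, Sord, thus rose in both comparisons. Akr1b3 itself had few counts, but these are uncertain because of its pseudogenes, and its level is not read from them.

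**Figure D4:**
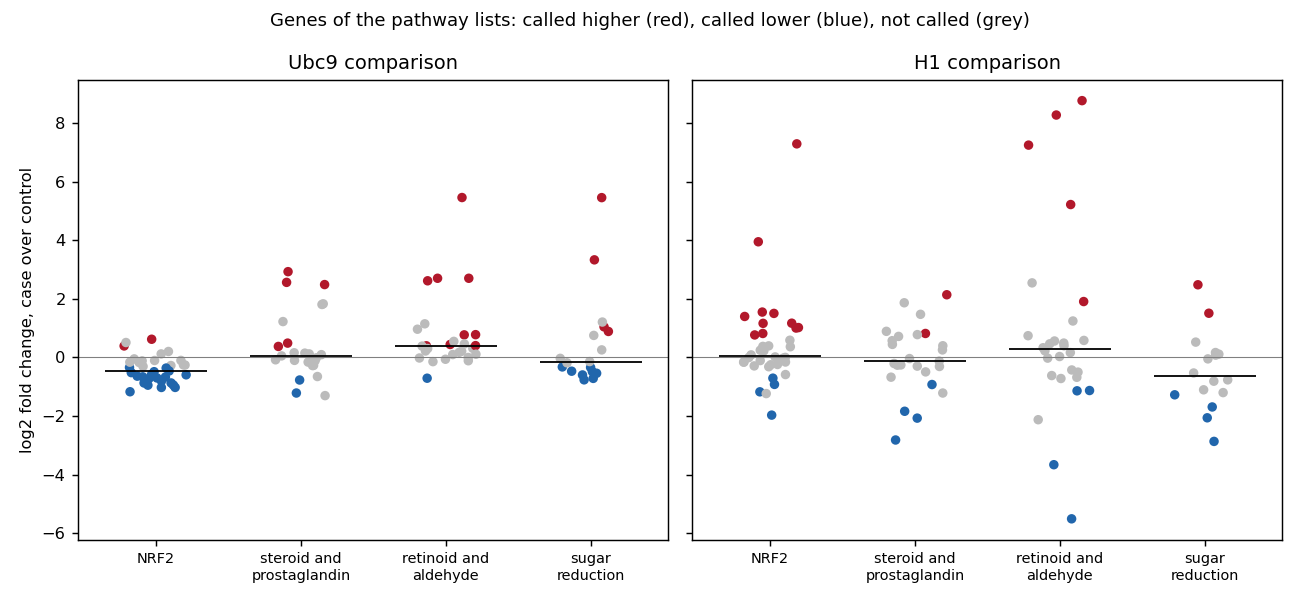
Log2 fold change, depleted or TKO over control, of each tested gene in the 4 lists, with the Ubc9 comparison on the left and the H1 comparison on the right. Each point is a gene, coloured by its edgeR call, and horizontal lines are list medians. In the Ubc9 comparison 20 of the 22 called NRF2-list genes are lower, and in the H1 comparison 11 of the 15 called are higher. Gsta1, Adh7 and Cyp26a1 had 0 counts in both H1 controls, and their points in the H1 comparison are not interpretable folds.

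Markers of other cell types stand beside the Akr1c result as follows, and their part in it was not tested. Over all genes tested, 21.1% were called higher and 15.0% lower in the Ubc9 comparison. These shares were 8.59% and 8.43% in the H1 comparison. Of 10 fibroblast markers, 9 were tested in the Ubc9 comparison and 6 rose in edgeR's quasi-likelihood test, with a summed level of 38.9 to 42.6 CPM in depleted and 19.5 to 19.8 CPM in control libraries; S100a4 was at 0 in 1 library of each group. Of 8 primitive endoderm markers 7 were tested and 5 rose, with sums of 21.6 to 29.4 CPM against 13.3 to 13.5 CPM and none at 0. Of 8 trophoblast markers 7 were tested and 4 fell, with sums of 78.2 to 87.8 CPM against 101 to 111 CPM. Of 10 2-cell-like markers 9 were tested and 8 rose, and Gm4340 was at 0 in all libraries. In the H1 comparison 7 of 8 tested 2-cell-like markers rose and 1 of 4 tested fibroblast markers fell, with 3 to 5 fibroblast markers at 0 in each library. Primitive endoderm markers summed to 15.5 to 17.0 CPM in TKO and 8.01 to 9.41 CPM in control libraries (1 of 7 tested rose). Trophoblast markers summed to 207 to 212 CPM against 110 to 131 CPM (3 of 7 tested rose and 1 fell).

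Genes with a pattern like that of Akr1b8 and Akr1c21, per kilobase the highest Akr1b and Akr1c genes of the 9 over the Ubc9 libraries, were ranked by Pearson's r of log2(CPM + 0.5), centred on the controls of each comparison, over the 8 libraries. For Akr1b8 the closest of 13656 genes were Rpl3l (r = 0.997), Ppapdc1b (0.996) and Prmt8 (0.995), a ribosomal protein, a lipid phosphatase and an arginine methyltransferase. Prmt8 was at 1.90 and 1.81 CPM in Ubc9-depleted, 1.34 and 1.46 CPM in Ubc9 control, 1.26 and 1.403 CPM in H1 TKO and 2.50 and 2.77 CPM in H1 control libraries. For Akr1c21 the closest of 13657 genes were Pcolce2 (r = 0.998), Saxo1 (0.995) and Cdh3 (0.995), of which Cdh3 encodes P-cadherin. Saxo1 was at 18.9 and 20.9 CPM in Ubc9-depleted and 2.95 and 3.01 CPM in control libraries, and at 0.686 to 0.886 CPM in the H1 libraries. These likenesses rest on 4 pairs of libraries that share cells and kit, and r was above 0.95 for 359 genes with Akr1b8 and 174 genes with Akr1c21.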

How the data were processed

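Gene counts of the 4 Ubc9 and 4 H1 libraries were used as deposited by the authors. Per the submitters' processing notes, cutadapt, STAR, HTSeq and DESeq2 were used with mm10; the sources used here give no versions, annotation, strand or handling of reads that match several genes. Libraries were made with ScriptSeq v2 (Ubc9) and Lexogen SENSE V2 (H1), per the labels' protocols.

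The 2 comparisons were fitted separately in R 4.3.3 with edgeR 4.0.16, using filterByExpr (minimum count 10, total 15), TMM factors, the quasi-likelihood test and Benjamini-Hochberg adjustment over all genes tested, at 0.05. SE values are the log2 fold change over the root of the F statistic. Exon lengths, coordinates and coding sequences came from GENCODE M21 (GRCm38), with 23376 symbols matched by name, and promoters from RefSeq (GRCm38.p6). A fold against 0 counts is a bound that takes 3 counts as the group's floor. Ratios to a group of 1 to 3 counts have exact 95% intervals for counting error only. The members and lists were chosen with earlier results of these data known. Named list genes are the passing genes of largest change, up to 4 per list and comparison, whose groups did not overlap and whose mean reached 1 CPM; genes so named and all passing superfamily and neighbouring genes are in the text. Counts of called genes per list replace list tests.

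Alternatives were RLE factors, library totals alone, no filter, DESeq2 1.42.0, a replicate block and leaving out each library. Tested on simulated data with 200 changed genes, the edgeR fit recovered 68% of 2-fold and 78% of 4-fold changes for the Ubc9 comparison (16499 genes; 5.81% of calls false) and 36% and 81% for the H1 comparison (14800 genes; 4.10% false). The level of the gene targeted in the Ubc9 comparison is not reported here.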

Additional observations from a re-analysis of the deposited data

How the results depend on the processing

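The log2 fold changes of the 9 genes kept their direction where it was read: of 108 alternative values 99 stayed within the SE of the main fit's value and 9 moved, none with a called gene changing sign. Counts of called genes moved with the library left out. Over all genes they ran from 2025 to 13038 in the Ubc9 comparison (5946 with all libraries) and from 1105 to 8032 in the H1 comparison (2518). For the 9 Akr genes they ran from 2 to 8 and from 1 to 2, for the other superfamily genes from 3 to 7 and from 2 to 4, for the NRF2 list from 14 to 32 and from 4 to 26, for the steroid and prostaglandin list from 3 to 19 and from 4 to 12, for the retinoid and aldehyde list from 2 to 17 and from 7 to 17, for the sugar list from 3 to 16 and from 5 to 11, and for the neighbouring genes from 0 to 7 and from 2 to 8. With 1 library left in a group, its spread was taken to equal that of the other group's pair, so these ranges follow which pair supplies the spread. In DESeq2 the retinoid and aldehyde list had 3 calls in the Ubc9 comparison. Same-numbered libraries correlated at −0.0032 (Ubc9) and 0.156 (H1) in their deviations, over 2 numbers, so the numbers were not taken as pairs; with a replicate block 5803 and 3461 genes were called over all genes, and 4 and 1 of the 9 Akr genes. Depth limits Akr1c12, Akr1c14, Akr1c19 and Akr1c21 in the H1 libraries, where each had at most 6 counts per library.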
